A study of Mus musculus with 9 samples.

Results

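The CD8 coreceptor, the CD3 chains of the T cell receptor (TCR) complex and the proximal kinases and adaptors of TCR signalling were described here through 10 genes, Cd8a, Cd8b1, Cd3d, Cd3e, Cd3g, Cd247, Lck, Zap70, Lat and Lcp2. They were taken by symbol from a table of 41388 genes, and all 10 were among the 11599 genes that were high enough to be tested (a mean of at least 10 normalized counts over the 9 libraries). RNA-Seq was performed on murine Tc17 cells, IL-17-producing CD8+ T cells, which were obtained from naive CD62L+CD44-CD8+ T cells of lymph nodes and spleens of C57BL/6 mice aged 8 to 12 weeks. Cells of all groups were activated for 48 h with 5 µg/ml plate-bound anti-CD3 and 0.5 µg/ml soluble anti-CD28, with 50 U/ml IL-2, TGF-β, IL-6 and a blocking antibody to IFN-γ. The groups were Ctrl (0.2% of the solvent DMSO alone), DMF (20 µM dimethyl fumarate in the same solvent) and DMF + GSH (20 µM DMF with 50 µM glutathione), with 3 libraries each. Replicate numbers R1 to R3 recur in every group. R1 was prepared in batch 1, and R2 and R3 in batch 2. The study describes its replicates as independent and its values as combined from separate experiments, and the mice behind each library are not named in the sources used here.

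In a CD8+ T cell the TCR α and β chains bind the peptide-MHC complex but carry no signalling motif of their own. Signals pass through the associated CD3 δ, ε and γ chains and the ζ chain (Cd247). The coreceptor CD8, a dimer of α and β chains (Cd8a, Cd8b1), binds MHC class I and brings the kinase LCK to the receptor. LCK phosphorylates the CD3 and ζ chains, ZAP70 binds to them, and ZAP70 in turn phosphorylates the scaffold LAT and the adaptor SLP-76 (Lcp2), on which the downstream enzymes assemble. Because the starting cells were sorted with an antibody to CD8 and activated through CD3, the presence of these transcripts is no finding, and the comparisons below concern their levels.

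Values are read counts per gene divided by the authors' factor for each library (normalized counts). Between 7671772 and 14511926 reads per library were assigned to genes. Every member rested on at least 496 reads in each library, the lowest being Cd247 in Ctrl R3. Of the defining markers, Cd4 was between 0 and 4.4 normalized counts in every library, while 7 of 7 general T cell markers (Trac, Trbc1, Trbc2, Thy1, Cd2, Cd5, Cd28) were expressed. The summed T cell list was 26518 to 30377 in Ctrl, 23680 to 26561 with DMF and 26268 to 29975 with DMF + GSH. A list of 4 CD4 T cell genes (Cd4, Zbtb7b, Foxp3, Cd40lg) summed to 638 to 964 in Ctrl, 1125 to 2529 with DMF and 547 to 999 with DMF + GSH. Most of that sum was Foxp3, the transcription factor of regulatory T cells, which rose with DMF (log2 fold change 1.29, adjusted p = 0.0221), whereas Cd4 itself averaged 1.97 in Ctrl and 1.03 with DMF. The gamma delta T cell marker Sox13 reached at most 13.8. B cell markers summed to 58.1 to 92.0 in any library, with Ms4a1 at 0 in all DMF libraries, and NK cell and red cell markers to at most 8.53 and 4.64. Myeloid markers reached 189 in Ctrl R3, mainly from Lyz2 (119) and Csf1r (58.3), and at most 24.2 in the DMF libraries. The part of these other transcripts in the results below was not tested. In bulk RNA, fewer cells expressing a gene and less RNA per cell cannot be told apart.

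With DMF, Zap70 and Lck fell and Cd8a rose (limma, adjusted p under 0.05 over all tested genes, preparation batch in the model), which makes 3 of 10 genes called, 1 higher and 2 lower. Over all genes tested, 28.0% were called in the same comparison (14.6% higher and 13.3% lower), so the share among the 10 genes was close to the background. When the replicate number, which pairs the libraries, replaced the batch in the model (replicate block), Cd3g, Cd3d and Cd3e also fell and Cd247 also rose, giving 7 of 10 genes called, 2 higher and 5 lower, against 45.0% of all genes (23.7% higher and 21.4% lower). Cd8b1, Lat and Lcp2 passed in neither fit. The median absolute log2 fold change was 0.24 over the 10 genes and 0.23 over all genes tested, and 0 of 10 passed the stricter limits of the study (adjusted p under 0.01, log2 fold change of 0.75 or more in either direction), which 2.89% of all genes passed, or 6.8% with the replicate block.

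**Figure D1:**
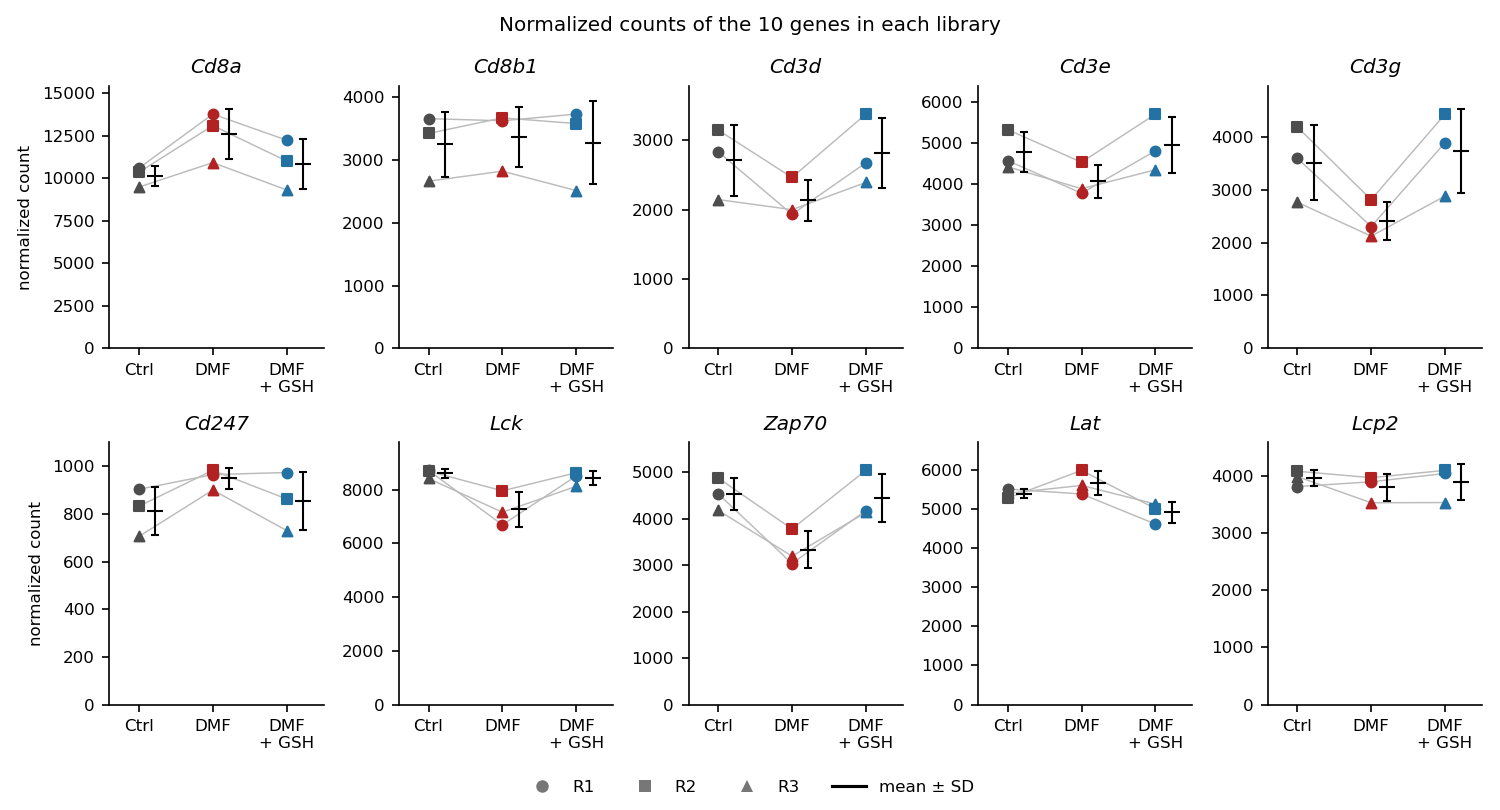
Normalized counts (y axis, linear and starting at 0) of each gene in each library by group (x axis), with circles, squares and triangles for R1, R2 and R3, grey lines joining libraries of the same number and black bars for the mean ± SD of 3 libraries. The DMF libraries of Zap70 (3033 to 3777) lie below all Ctrl libraries (4179 to 4874), and those of Cd8a (10923 to 13778) lie above them (9483 to 10599).

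Of the coreceptor chains, Cd8a rose with DMF and Cd8b1 did not pass the test. Cd8a was 10599, 10356 and 9483 normalized counts in Ctrl R1, R2 and R3 and 13778, 13103 and 10923 with DMF. Every DMF library was above every Ctrl library, as for 41.3% of all tested genes that did not overlap between these groups. The mean rose by 24.2%, from 10146 ± 587 to 12601 ± 1492 (SD, n = 3 each), with a log2 fold change of 0.31 (SE 0.0949, adjusted p = 0.0378; 1.35e-04 with the replicate block). This rise was 0.38 in R1, the sole library pair of batch 1, and 0.34 and 0.20 in R2 and R3 of batch 2. Cd8b1, which encodes the β chain that pairs with CD8α on conventional cytotoxic T cells, was 3658, 3422 and 2662 in Ctrl and 3625, 3671 and 2821 with DMF. The groups overlapped, and the log2 fold change was 0.06 with a 95% confidence interval from −0.27 to 0.38 (adjusted p = 0.793), or from −0.06 to 0.17 with the replicate block. R3 gave the lowest Cd8b1 level in each group.

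Per library, Cd8a exceeded Cd8b1 by a ratio of 2.90, 3.03 and 3.56 in Ctrl and of 3.80, 3.57 and 3.87 with DMF. All DMF ratios were above the Ctrl ratios, although Ctrl R3 and DMF R2 nearly touched. The mean log2 ratio was higher by 0.25 with DMF, by 0.39, 0.24 and 0.12 in R1, R2 and R3 (two-sided exact permutation test, n = 3 against 3, p = 0.1, the smallest that this design allows; Benjamini-Hochberg adjusted over 15 ratio tests, 0.167). Cd8a and Cd8b1 lie in the same orientation on chromosome 6 of GRCm38, at chr6:71373427-71379173 and chr6:71322788-71337494 on the plus strand, 35932 bases apart.

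The CD3 genes were lower with DMF in every replicate number. Cd3g, the γ chain, was 3593, 4186 and 2763 in Ctrl and 2303, 2811 and 2121 with DMF. R2 was the highest library and R3 the lowest in both groups, which overlapped in that DMF R2 lay above Ctrl R3. Its mean differed by −31.4%, with a log2 fold change of −0.53 (SE 0.186). The adjusted p was 0.0569 in the model with the batch and 9.04e-07 in that with the replicate block, and the differences within R1, R2 and R3 were −0.64, −0.57 and −0.38. Cd3d, the δ chain, was 2838, 3151 and 2147 in Ctrl and 1934, 2466 and 2001 with DMF, again with R2 highest in both groups. The log2 fold change was −0.34 (SE 0.165, adjusted p = 0.151; 4.48e-04 with the block), and the difference was small in R3 (−0.10) beside R1 (−0.55) and R2 (−0.35). Cd3e, the ε chain to which stimulating anti-CD3 antibodies bind, was 4577, 5331 and 4428 in Ctrl and 3781, 4537 and 3892 with DMF. It was lower with DMF by 14.8%, with a log2 fold change of −0.23 (SE 0.112, adjusted p = 0.146; 0.00135 with the block) and differences of −0.28, −0.23 and −0.19 by replicate number.

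Cd247, the ζ chain, carries most of the signalling motifs of the complex and differed in direction. It was 903, 832 and 705 in Ctrl and 965, 983 and 900 with DMF. The lowest DMF library (R3) lay just under the highest Ctrl library (R1), and each DMF library was above the Ctrl library of its number. The log2 fold change was 0.23 (SE 0.0984). Its adjusted p was 0.109, and 0.0107 with the replicate block, where it became 0.0563 without Ctrl R3 and 0.105 without DMF R3. In the GENCODE vM21 annotation, 56.4% of the exon bases of Cd247 are also exon bases of Pou2f1 on the opposite strand, which averaged 4.29 normalized counts. The library kit does not mark strand, so reads of this pair cannot be told apart and the Cd247 level is uncertain. Exon bases shared with other annotated genes came to at most 6.32% in the other 9 genes.

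Ratios between the chains were taken within each library. Cd247 relative to Cd3e was 0.197, 0.156 and 0.159 in Ctrl and 0.255, 0.217 and 0.231 with DMF, a difference of 0.46 on the log2 scale. The groups did not overlap (exact permutation p = 0.1, n = 3 against 3; adjusted over 15 tests, 0.167). Further ratios were chosen after the values were seen. Cd247 relative to Cd3g differed by 0.76 (0.74, 0.81 and 0.73 in R1, R2 and R3), Cd247 relative to Cd3d by 0.57, and Cd3g relative to Cd3e by −0.30. None of these 3 overlapped between Ctrl and DMF, although for Cd3g relative to Cd3e the highest DMF ratio (0.620, R2) nearly touched the lowest Ctrl ratio (0.624, R3), and each had the same exact p = 0.1 (n = 3 against 3). With DMF + GSH the ratio of Cd247 to Cd3g was 0.250, 0.195 and 0.254, beside 0.251, 0.199 and 0.255 in Ctrl.

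**Figure D2:**
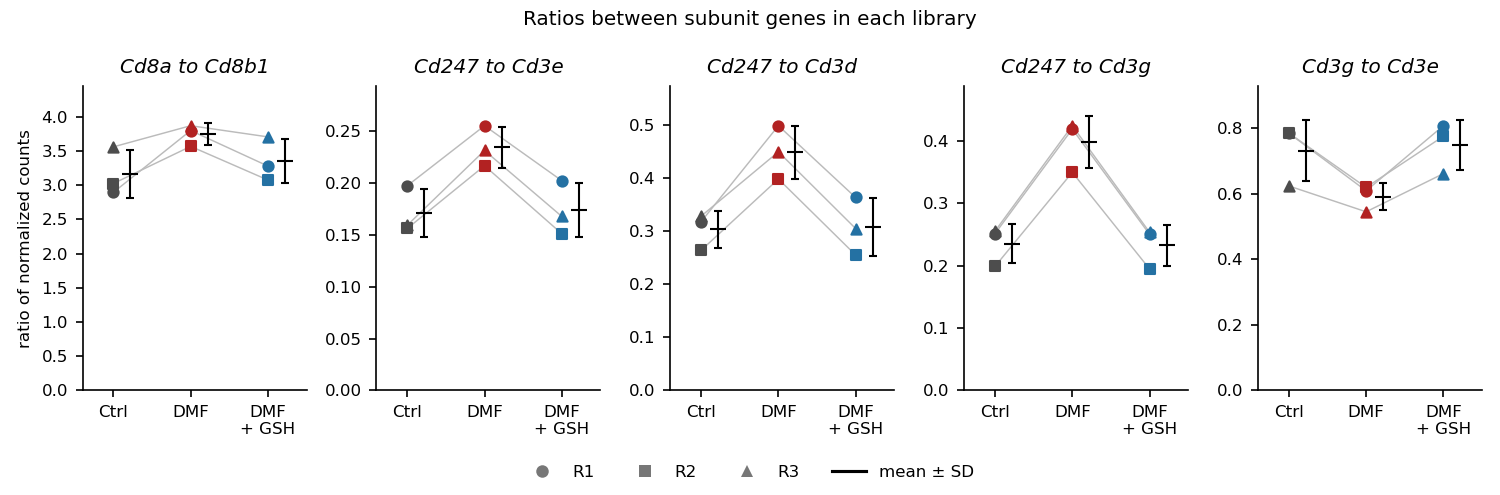
Ratios of normalized counts (y axis, linear and starting at 0) between the subunit genes named above each panel, in each library by group (x axis), with circles, squares and triangles for R1, R2 and R3, grey lines joining the same number and black bars for the mean ± SD of 3 libraries. Cd247 relative to Cd3g lies between 0.350 and 0.424 with DMF and between 0.195 and 0.255 in the other 6 libraries.

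Cd3g, Cd3d and Cd3e form a cluster on chromosome 9. Cd3g (chr9:44969572-44980431, minus strand) and Cd3d (chr9:44981786-44987339, plus strand) are divergently oriented with 1354 bases between them, and Cd3e (chr9:44998740-45009627, minus strand) lies 11400 bases beyond Cd3d, counted between the gene bodies. Cd247 lies apart from this cluster, on chromosome 1 (chr1:165788681-165877277, plus strand). The 250 bases before the start site of these 4 genes are shown because their log2 fold changes with DMF had different signs, below 0 for the clustered genes and above 0 for Cd247. They are RefSeq windows of GRCm38.p6, written from 5′ to 3′ on the strand of the gene and covering chr9:44980432-44980681, chr9:44981536-44981785, chr9:45009612-45009861 and chr1:165788431-165788680. Capitals mark matches, on either strand, to short core letters of the ETS, E-box, RUNX and GATA families of factors, which are spelled out beside their counts.
Cd3g: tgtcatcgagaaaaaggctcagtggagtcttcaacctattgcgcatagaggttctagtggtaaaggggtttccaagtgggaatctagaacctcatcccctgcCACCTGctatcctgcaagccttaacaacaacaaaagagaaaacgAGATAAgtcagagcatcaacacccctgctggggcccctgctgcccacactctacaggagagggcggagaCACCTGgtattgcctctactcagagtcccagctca
Cd3d: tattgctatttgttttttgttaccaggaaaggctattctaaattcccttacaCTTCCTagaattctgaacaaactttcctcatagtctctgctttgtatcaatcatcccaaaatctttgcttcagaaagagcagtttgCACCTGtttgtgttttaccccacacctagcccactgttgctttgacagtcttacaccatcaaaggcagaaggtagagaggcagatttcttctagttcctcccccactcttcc
Cd3e: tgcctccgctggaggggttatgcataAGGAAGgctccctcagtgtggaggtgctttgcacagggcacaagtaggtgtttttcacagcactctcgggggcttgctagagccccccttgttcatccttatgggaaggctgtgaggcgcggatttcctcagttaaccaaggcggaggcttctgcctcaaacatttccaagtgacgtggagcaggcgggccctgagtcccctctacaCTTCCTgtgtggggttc
Cd247: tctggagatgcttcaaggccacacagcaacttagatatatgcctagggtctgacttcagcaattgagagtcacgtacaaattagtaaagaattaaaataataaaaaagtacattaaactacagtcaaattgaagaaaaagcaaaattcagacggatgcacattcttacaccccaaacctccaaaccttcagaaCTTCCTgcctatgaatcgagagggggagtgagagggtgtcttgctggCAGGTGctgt

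The Cd3d and Cd247 windows each held 1 ETS and 1 E-box match, the Cd3e window 2 ETS matches, and the Cd3g window 2 E-box matches and 1 GATA match. Windows were found for 9 of the 10 genes, 12 windows in all, and Cd8b1 had no entry. The ETS letters AGGAAG were in 9 of these 12 windows (7 genes) and in 29.5% of 32851 RefSeq windows of the same length. The E-box letters CAGGTG were in 6 windows (5 genes) against 17.2% of all windows. The RUNX letters TGTGGT were in 2 windows against 14.1%, and the GATA letters AGATAA were in 2 against 9.99%. The window of Cd8a held none of them, and 0 of the matches overlapped each other. A match is a run of letters and not a binding site.

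Both proximal kinases fell with DMF. Zap70 was 4535, 4874 and 4179 in Ctrl and 3033, 3777 and 3192 with DMF, and every DMF library lay below every Ctrl library. The mean decreased by 26.4%, from 4530 ± 347 to 3334 ± 392 (SD, n = 3 each), with a log2 fold change of −0.45 (SE 0.101, adjusted p = 0.0132; 2.31e-06 with the block) and differences of −0.58, −0.37 and −0.39 by replicate number. Lck was 8719, 8689 and 8417 in Ctrl, where its CV of 1.93% was the lowest of the 10 genes, and 6689, 7956 and 7159 with DMF. It fell by 15.6%, without overlap between the groups (log2 fold change −0.25, SE 0.0744, adjusted p = 0.0341; 0.00120 with the block). R1 differed by −0.38, R2 by −0.13 and R3 by −0.23.

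Neither adaptor passed the test. Lat was 5514, 5280 and 5404 in Ctrl and 5388, 5992 and 5607 with DMF. Its log2 fold change was 0.07 with a 95% confidence interval from −0.08 to 0.21 (adjusted p = 0.462). Lcp2 was 3811, 4079 and 3986 in Ctrl and 3894, 3966 and 3528 with DMF, with a log2 fold change of −0.06 and an interval from −0.24 to 0.11 (adjusted p = 0.580). For both genes the direction differed between replicate numbers.

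The calls with the batch term depended on single libraries, as did those over all genes. Of all genes tested, 3242 were called with every library included. There were 629 without Ctrl R1, 1161 without Ctrl R2, 111 without DMF R1 and 957 without DMF R3. Without 1 library, Zap70 stayed called in 5 of 9 fits and was lost without Ctrl R1 (adjusted p = 0.0802), Ctrl R2 (0.0563), DMF R1 (0.0903) or DMF R3 (0.0646). Lck stayed called in 4 of 9 fits and was lost without Ctrl R1 (0.150), Ctrl R2 (0.0968), DMF R1 (0.206), DMF R3 (0.126) or DMF + GSH R1 (0.0524). Cd8a stayed called in 2 of 9 fits, without DMF + GSH R2 or R3, and was lost without any of the other 7 libraries (0.0528 to 0.166). With the replicate block, these 3 genes and Cd3d, Cd3e and Cd3g stayed called in 9 of 9 fits. None of these fits turned the direction of Cd8a, Cd247, a CD3 gene, Lck or Zap70. Without Ctrl R3, the library with the myeloid transcripts, 4 of 10 genes were called with the batch term. Over all genes 3790 of 11618 were called in that fit.

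**Figure D3:**
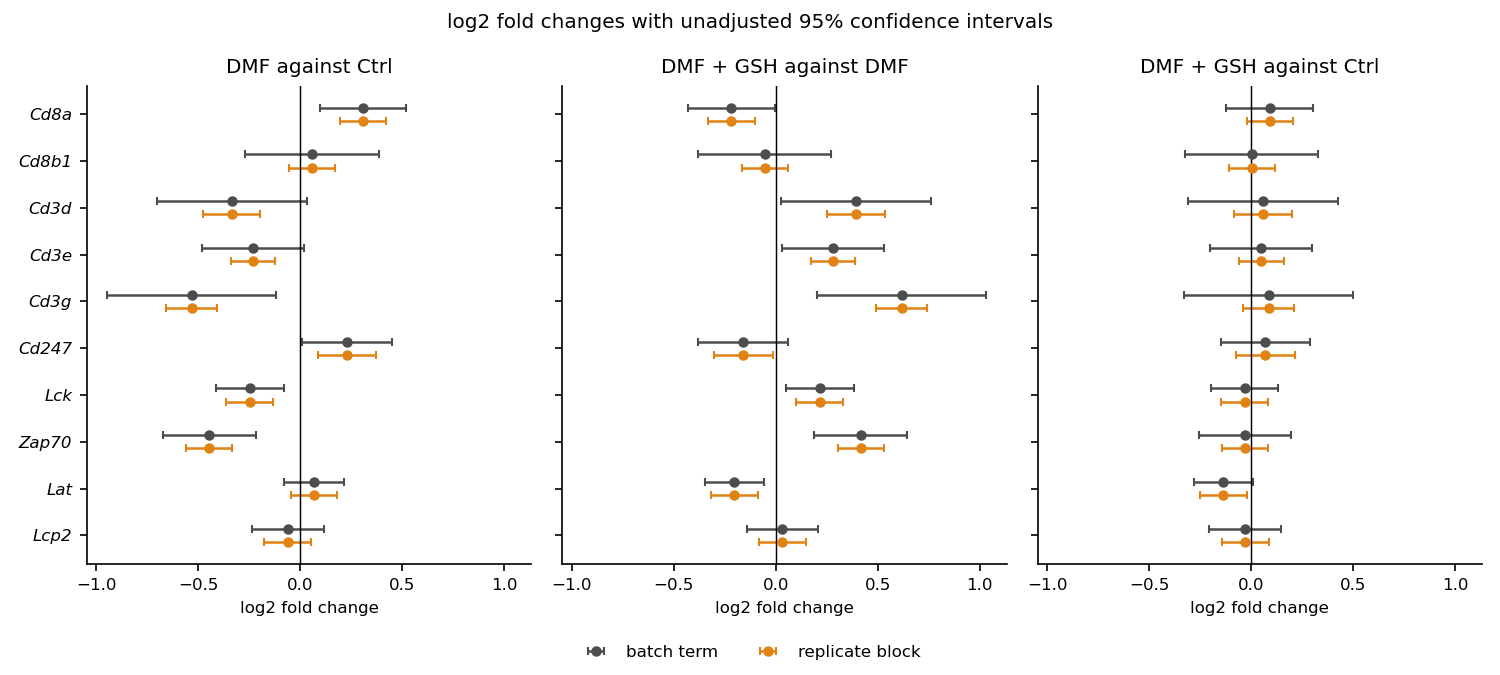
log2 fold changes of the 10 genes (x axis) in 3 comparisons, with bars for the unadjusted 95% confidence interval of the fit with the batch term (grey) and with the replicate block (orange). The point estimates are the same in both fits, and in the comparison of DMF + GSH with Ctrl they lie between −0.14 and 0.09.

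Addition of GSH to DMF was compared with DMF alone. Zap70 and Cd3g rose, 2 of 10 genes called, both higher, where 22.3% of all genes were called (9.99% higher and 12.4% lower). With the replicate block 7 of 10 were called, 5 higher (Cd3d, Cd3e, Cd3g, Lck, Zap70) and 2 lower (Cd8a, Lat), against 41.5% of all genes (19.9% higher and 21.6% lower). The limits of the study were passed by 0 of 10 genes in both fits, and by 0.543% of all genes (5.69% with the replicate block). This comparison shares its DMF libraries with that of DMF against Ctrl, so their values are given side by side and their opposite signs are not independent results.

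Zap70 was 4172, 5038 and 4132 with DMF + GSH, all above the DMF libraries, with a log2 fold change of 0.42 (SE 0.101, adjusted p = 0.0207; 6.52e-06 with the block). Cd3g was 3890, 4430 and 2880, and its lowest library, R3, was still above the highest DMF library. It rose by 54.8%, with a log2 fold change of 0.62 (SE 0.186, adjusted p = 0.0404; 2.23e-07 with the block). Cd3d was 2678, 3381 and 2394 (log2 fold change 0.39, adjusted p = 0.109; 1.13e-04 with the block). Cd3e was 4816, 5711 and 4353 (0.28, 0.0949 and 2.77e-04 in the same order), and Lck was 8510, 8631 and 8126 (0.22, 0.0617 and 0.00404).

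Cd8a was 12243, 11016 and 9317 with DMF + GSH and differed from DMF alone by −0.22 (adjusted p = 0.124; 0.00331 with the block), in the same direction in each replicate number. Cd247 was 974, 863 and 730, which differed from DMF by −0.16 (adjusted p = 0.263; 0.0717 with the block) and was not lower in R1. Lat, which was not called between DMF alone and Ctrl, was 4618, 5011 and 5130 with DMF + GSH. Every one of these lay below all DMF and all Ctrl libraries. Against DMF its log2 fold change was −0.20 (SE 0.0653, adjusted p = 0.0502; 0.00572 with the block). Zap70, Cd3g, Lck and Lat did not overlap between DMF + GSH and DMF, and 38.3% of all genes did not. Cd8b1 (3731, 3580 and 2512) and Lcp2 (4040, 4094 and 3531) had log2 fold changes of −0.05 and 0.03, with intervals from −0.38 to 0.27 and from −0.14 to 0.21. The ratio of Cd8a to Cd8b1 was 3.28, 3.08 and 3.71, and that of Cd247 to Cd3e was 0.202, 0.151 and 0.168, lower than with DMF by 0.16 and 0.44 on the log2 scale (exact permutation p = 0.2 and 0.1, n = 3 against 3).

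With the batch term, Cd3g lost its call without Ctrl R1 (adjusted p = 0.0698), DMF R1 (0.186), DMF R3 (0.151), DMF + GSH R1 (0.171) or DMF + GSH R2 (0.151). Zap70 lost it without DMF R1 (0.130), DMF R3 (0.0950), DMF + GSH R1 (0.105) or DMF + GSH R2 (0.0891). With the replicate block all the calls stayed without any 1 library but for Lck without DMF R1 (0.0516), and Cd247 became called without DMF R1 (0.0182) or DMF + GSH R1 (0.0383). Over all genes, 2592 were called with the batch term and every library. That number was 1756 without Ctrl R1, 15 without DMF R1, 106 without DMF R3 and 10 without DMF + GSH R1.

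DMF + GSH was then compared with Ctrl. In limma 0 of 10 genes were called in either fit, and 0.0% of all genes were called with the batch term. With the replicate block 0.0345% of all genes were called, 0.00862% higher and 0.0259% lower, and 0.00862% passed the limits of the study. At an unadjusted p under 0.05 there were 0 of the 10 genes with the batch term and 1, Lat, with the block, and edgeR and DESeq2 also called 0. The log2 fold changes ran from −0.14 (Lat, interval −0.28 to 0.01) to 0.09 (Cd8a, interval −0.12 to 0.30). Lat was the only one of the 10 genes whose libraries did not overlap between these groups, as was so for 4.47% of all genes. The widest intervals were those of Cd3g (0.09, from −0.33 to 0.50), Cd3d (0.06, from −0.31 to 0.43), Cd8b1 (0.0033, from −0.32 to 0.33) and Cd3e (0.05, from −0.20 to 0.30). A remaining difference of that size was thus not detectable with the batch term. With the replicate block these intervals ran from −0.04 to 0.21 (Cd3g), −0.08 to 0.20 (Cd3d), −0.11 to 0.12 (Cd8b1) and −0.06 to 0.16 (Cd3e).

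Levels between genes were compared as normalized counts per kilobase of exon (union of the exons of all transcripts in GENCODE vM21). In Ctrl the order was Lck (2939 ± 56.8, SD, n = 3), Cd8a (2790 ± 161), Cd8b1 (2190 ± 351), Lat (1951 ± 42.4), Zap70 (1514 ± 116), Cd3d (1494 ± 283), Cd3e (1171 ± 119), Cd3g (1075 ± 219), Lcp2 (888 ± 30.5) and Cd247 (153 ± 18.8). Neighbours whose ranges of mean ± SD overlapped were Lck and Cd8a, Cd8b1 and Lat, and each successive pair from Zap70 through Cd3d, Cd3e and Cd3g to Lcp2. With DMF Cd8a came before Lck, at 3465 ± 410 against 2482 ± 219 per kilobase, and also with DMF + GSH, at 2986 ± 404 against 2876 ± 90.1, where the ranges of mean ± SD overlapped and the order turned per kilobase of the longest transcript (Cd8a 3471, Lck 3855). Cd247 was the lowest of the 10 genes in each group, at a level that is uncertain because of the exon bases it shares with Pou2f1. Cd4 was at 0.488 per kilobase in Ctrl.

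**Figure D4:**
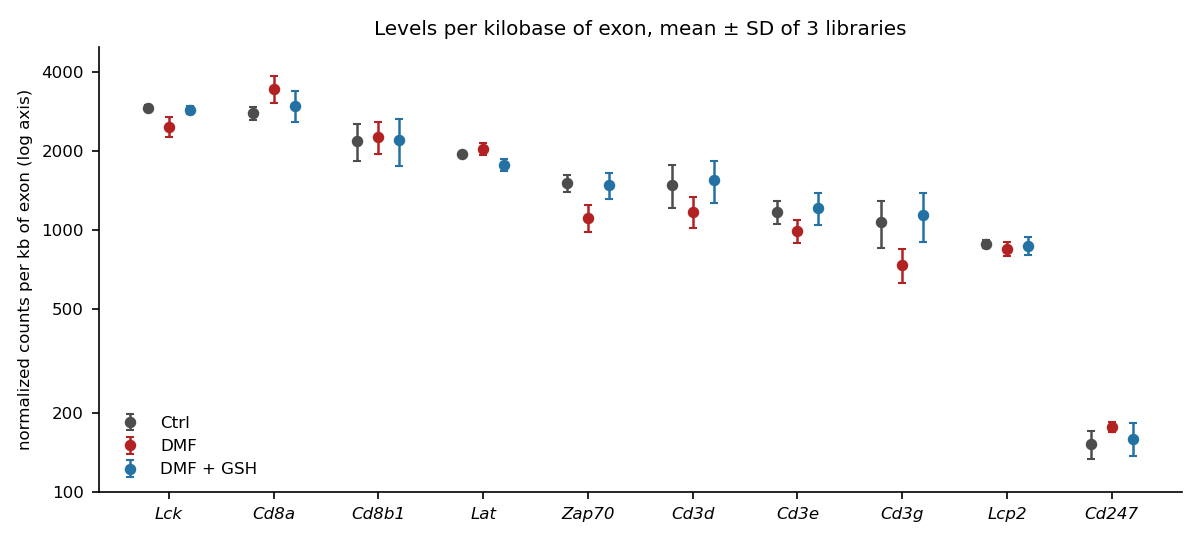
Normalized counts per kilobase of exon (y axis, log scale) of the 10 genes in the order of their Ctrl levels (x axis), with points and bars for the mean ± SD of 3 libraries in each group. Lck is highest in Ctrl (2939) and Cd8a with DMF (3465) and with DMF + GSH (2986), while Cd247 stays between 153 and 178 in the 3 groups.

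The surrounding pathway was described with 80 further genes in 5 lists, of which 78 could be tested. With DMF 3 rose and 25 fell (35.9% called, beside 28.0% of all genes), with a median log2 fold change of −0.15 beside 0.01 over all genes. With the replicate block 8 rose and 37 fell (57.7%, beside 45.0% of all genes, 23.7% higher and 21.4% lower). With the batch term the 28 calls became 5 without Ctrl R1, 10 without Ctrl R2, 1 without DMF R1 and 9 without DMF R3, and 23 to 31 without 1 of the other libraries, while with the block there were 36 to 46 without 1 library. Over all genes the 3242 calls with the batch term became 629 without Ctrl R1, 1161 without Ctrl R2, 111 without DMF R1 and 957 without DMF R3. Among the constant chains of the TCR, Trac, Trbc1 and Trbc2, 0 of 3 passed with limma and the batch term (1 at an unadjusted p under 0.05; 0 with edgeR and with DESeq2) and 3 of 3 fell with the block. Their log2 fold changes were −0.20, −0.25 and −0.24, close to that of Cd3e. Trbc1 and Trbc2 are near-identical copies whose reads the counting may have split. Fcer1g, which can replace the ζ chain, was too low to be tested.

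Of 12 coreceptor partners and costimulatory or adhesion receptors, 1 rose and 4 fell (2 and 5 with the replicate block). Over all genes 14.6% rose and 13.3% fell, or 23.7% and 21.4% with the replicate block. Icam1, an adhesion ligand, rose (log2 fold change 0.39, adjusted p = 0.00711). Slamf6, a homotypic receptor of lymphocytes, fell (−0.98, 0.0136), as did Cd28, the costimulatory receptor engaged in these cultures (−0.50, 0.0311), Ptprc, the phosphatase CD45 that keeps LCK active (−0.38, 0.0326), and Cd5, an inhibitory coreceptor of the TCR (−0.31, 0.0192).

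Of 22 other proximal kinases and adaptors, 1 rose and 6 fell (2 and 8 with the replicate block), beside the same shares over all genes (14.6% and 13.3%, or 23.7% and 21.4%). Txk, a kinase of the Tec family, fell (log2 fold change −0.80, adjusted p = 0.0106), and Tec itself had a log2 fold change of −0.04 (adjusted p = 0.814). Fyb (−0.82, 0.0232) and Skap1 (−0.48, 0.0260), adaptors that link the TCR to integrins, fell together. Themis (−0.52, 0.00640), a T cell protein that binds GRB2, and Plcg1 (−0.46, 0.0148), the phospholipase recruited to LAT, also fell, as did Grap2, the adaptor that joins LAT to SLP-76 (−0.33, 0.0391). Fyn, the second SRC family kinase of T cells, had a log2 fold change of −0.05 (adjusted p = 0.644).

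Of 20 negative regulators of proximal signalling, 0 rose, 8 fell and 12 were not called, beside 14.6% of all genes higher and 13.3% lower. With the replicate block 2 rose, Ptpn2 (0.19, adjusted p = 0.0142) and Ubash3a (0.18, 0.0148), both phosphatase family members, and 9 fell. Sla (−1.0, adjusted p = 0.0313), an adaptor that promotes the turnover of TCR chains, and Lax1 (−0.93, 0.0195), an inhibitory membrane adaptor, had, with Slamf6, the largest changes of all 78 genes. The ubiquitin ligases Cblb (−0.78, 0.0260) and Cbl (−0.33, 0.0414), the diacylglycerol kinase Dgka (−0.69, 0.00933), the membrane adaptor Sit1 (−0.65, 0.0232), the phosphatase Ptpn22 (−0.59, 0.0252) and the adaptor Dok2 (−0.31, 0.0405) made up the remainder of those that fell with the batch term. Of 21 distal pathway genes, 1 rose, Nfkb1 (0.35, 0.0297), and 7 fell, or 2 and 12 with the replicate block, where 14.6% and 13.3% of all genes did so, or 23.7% and 21.4%. Among those that fell, Bcl10 (−0.36, 0.0411) is an adaptor of NF-κB signalling, Itpr3 (−0.61, 0.00169) and Stim1 (−0.60, 0.00604) release and sense calcium stores, Prkcq (−0.59, 0.00865) is the protein kinase C of the T cell synapse, Mapk3 (−0.57, 0.00460) encodes ERK1, and Nfatc3 (−0.26, 0.0233) is an NFAT factor.

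**Figure D5:**
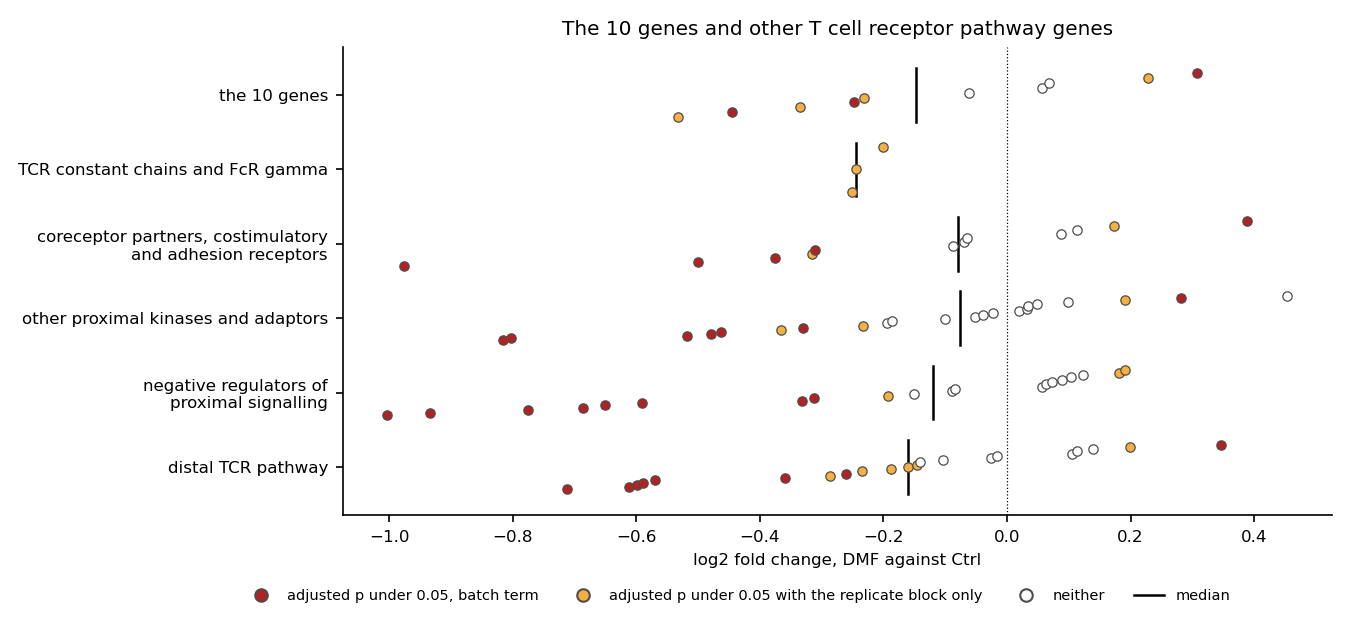
log2 fold changes of DMF against Ctrl (x axis) for the 10 genes and for the tested genes of 5 pathway lists (rows), with 1 point per gene spread vertically by rank, filled red where called with the batch term, yellow where called only with the replicate block and white otherwise, and a black line at the median of each list. The list medians lie between −0.24 and −0.08.

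When GSH was added to DMF, 19 of the 78 pathway genes rose and 2 fell against DMF alone (26.9% called, beside 22.3% of all genes), with a median log2 fold change of 0.12, and with the replicate block 33 rose and 7 fell (51.3%, beside 41.5% of all genes). The 21 calls became 9 without Ctrl R1, 0 without DMF R1 or DMF + GSH R1 and 1 without DMF R3 or DMF + GSH R2. They became 23 without Ctrl R2 or Ctrl R3 and 26 without DMF R2 or DMF + GSH R3, and with the block 34 to 43 were made without 1 library. Over all genes the 2592 calls with the batch term became 1756 without Ctrl R1, 15 without DMF R1, 106 without DMF R3 and 10 without DMF + GSH R1. Icam1 was among those that fell (−0.39, adjusted p = 0.0112). Trac rose (0.27, 0.0325). Against Ctrl, DMF + GSH showed 0 of 78 calls in limma with either fit, with 2 genes at an unadjusted p under 0.05 with the batch term and 5 with the replicate block in limma, and edgeR and DESeq2 called 0 with the batch term.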

How the data were processed

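Single reads were aligned by the authors to GRCm38 with STAR (2.4.0b in the submitters' processing notes) and counted per gene with featureCounts, and the counts were divided by a size factor for each library. Whether reads were counted by strand was not given in the sources used here. Deposited values are signal values, that is read counts divided by a factor for the library. Dividing by the smallest step of each library gave whole reads for 100% of the values above 0 (tolerance 0.01). The deposited table also holds the authors' own comparison columns (log2 fold change, a test statistic or score, p-value and adjusted p), which were not used. No row lacked a gene name.

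limma-trend (limma 3.58.1, R 4.3.3) was fitted to log2(normalized count + 1) for 11599 of 41388 genes (mean of 10 or more), with all 9 libraries, group and preparation batch in the model, and Benjamini-Hochberg adjustment over all genes tested. A gene was called at an adjusted p under 0.05. Fold changes are on the log2(value + 1) scale. The replicate numbers in the sample labels paired the libraries: after subtraction of group means, libraries with the same number in different groups correlated with 0.447 to 0.578 in all 9 pairs, and libraries with different numbers with −0.471 to −0.0621 in 18 pairs. Once same-number correlations are positive, subtracting group means makes the others negative on average. The negative range is thus not a separate result. Given the positive correlations at the same number, the block is printed where it changes a call. On the recovered reads, edgeR 4.0.16 called 1728 genes higher and 1548 lower with DMF against Ctrl, 1208 and 1441 with DMF + GSH against DMF, and 0 with DMF + GSH against Ctrl (213 at an unadjusted p under 0.05). limma called 3242, 2592 and 0 (222 at an unadjusted p under 0.05) in these comparisons, and 5224, 4814 and 4 with the replicate block.

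Positions, exon lengths and overlaps come from GENCODE vM21, and promoter windows from RefSeq (GRCm38.p6). Ratios were tested with exact two-sided permutation tests. Members and gene lists were chosen with earlier results of these data known. Named genes were the 10 members, Trac, Trbc1, Trbc2, Cd4, Cd28 and, from each list, up to 5 with the largest absolute change among those called with DMF against Ctrl and moving the same way in all replicate numbers. Nfkb1, Tec, Fyn, Grap2, Cbl, Ptpn22, Dok2, Bcl10, Nfatc3, Fcer1g, Ptpn2, Ubash3a, Foxp3 and Pou2f1 were named beyond that rule after their values were seen, as were markers. Some genes that the rule or the marker lists hold are not reported here. The fits were tested on simulated data. Alternatives were pseudocounts of 0.5 and 4, no minimum and a minimum mean of 50, TMM rescaling, a model without batch, a model with the replicate number, a fit restricted to the 6 libraries of a comparison, edgeR, DESeq2 1.42.0 and each library left out. The precision is limited by 3 libraries per group. The markers Trdc, Trgc1, Trgc2 and Adgre1 were not analysed here.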

Additional observations from a re-analysis of the deposited data

How the results depend on the processing

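The number of the 10 genes called with DMF against Ctrl (3) was 7 with the replicate block in limma and in edgeR, 1 in a fit of only the 6 libraries compared and 0 with no minimum mean, where 41388 genes entered and 59 were called in all. It ranged from 0 (without Ctrl R1, Ctrl R2, DMF R1 or DMF R3) to 4 without 1 library, and from 6 to 7 with the block. Over all genes, the batch term gave 111 calls without DMF R1 and 3790 without Ctrl R3. With DMF + GSH against DMF the number of the 10 genes called (2) was 7 with the block in limma and in edgeR, 4 with DESeq2 and 0 with no minimum mean. It ranged from 0 (without DMF R1, DMF R3, DMF + GSH R1 or DMF + GSH R2) to 4 without 1 library, and from 7 to 8 with the block. Over all genes, the batch term gave 10 calls without DMF + GSH R1 and 3099 without DMF R2. With DMF + GSH against Ctrl the number of the 10 genes called was 0 in all alternatives. Other pseudocounts, a minimum mean of 50, TMM rescaling, no batch term and edgeR with the batch term left these numbers within 1.5 times. The Cd8a call with DMF was lost with no batch term (adjusted p = 0.0746) and in the fit of 6 libraries (0.0509), and that of Lck in the fit of 6 libraries (0.0634). The cause of these differences was not tested.

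Sign changes without 1 library were seen only in values that were not called. For DMF against Ctrl the log2 fold change of Cd8b1 ranged from −0.061 to 0.15 and that of Lcp2 from −0.11 to 0.0033 (block). For DMF + GSH against DMF they ranged from −0.18 to 0.096 and from −0.019 to 0.10. For DMF + GSH against Ctrl the ranges were −0.13 to 0.15 (Cd8b1; with the block −0.027 to 0.053, negative also without Ctrl R2, −0.023, and without DMF + GSH R2, −0.017), −0.13 to 0.19 (Cd3d; −0.025 to 0.15), −0.049 to 0.16 (Cd3e), −0.085 to 0.27 (Cd3g), −0.0037 to 0.15 (Cd247), −0.064 to 0.0036 (Lck; −0.067 to 0.0026), −0.11 to 0.044 (Zap70; −0.068 to 0.027) and −0.080 to 0.042 (Lcp2; with the block −0.080 to 0.037, positive also without DMF + GSH R3, 0.016). The log2 ratio differences of that comparison ranged from −0.094 to 0.13 (Cd247 to Cd3e), −0.12 to 0.14 (Cd247 to Cd3d), −0.13 to 0.11 (Cd247 to Cd3g) and −0.074 to 0.12 (Cd3g to Cd3e).

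Per kilobase of the longest transcript the Ctrl levels were Lck 3940, Cd8a 3244, Lat 2630, Cd8b1 2190, Zap70 2018, Cd3e 1874, Cd3d 1677, Cd3g 1384, Lcp2 1086 and Cd247 275, so that Lat came before Cd8b1 and Cd3e before Cd3d. The pathway list calls with DMF (0, 5, 7, 8 and 8 in the order of the lists) were 3, 7, 10, 11 and 14 with the block, 0 to 1 with no minimum mean and 0 to 9 without 1 library. Over all genes 59 were called with no minimum mean, 111 without DMF R1 and 3790 without Ctrl R3.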
